A study of Mus musculus with 20 samples.

Results

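RNA was sequenced from sorted mouse DN3 thymocytes, and the 3 libraries of MxCre control mice were compared with the 3 libraries of mice given control IgG antibody. These are the control arms of separate experiments in a series of 20 libraries, and they were chosen by their labels alone. MxCre mice (n = 3) carried the Mx-driven Cre recombinase and were sampled 8 weeks after 5 injections of 40 mcg pI-pC given every 2 days. IgG mice were sampled 24 h after 10 mg/kg of the isotype control antibody. The strain is given as C57BL/6 for all of them. All 6 libraries were made from 50 ng of RNA with the same SMARTer kit and held 16537447 to 19133149 expected counts in MxCre and 15277568 to 18745922 in IgG. The treated arms of the same experiments, also from this kit, gave a further look at the difference between the experiments. DeltaMxCre mice (n = 3) carried MxCre with floxed Zmiz1 and had the same pI-pC course, and AntiNRR mice (n = 3) were sampled 24 h after 10 mg/kg of an antibody against the negative regulatory region of Notch1. The pI-pC course, the antibody injection and the time since treatment all separate MxCre from IgG, as does any difference in genotype, and they cannot be told apart. Values from the series' remaining experiment are given for a few genes: DeltaTamCre mice (n = 4) carried Rosa26CreERT2 with floxed Zmiz1 and TamCre mice (n = 4) carried Rosa26CreERT2, both were sampled 43 to 44 h after 0.2 mg/g tamoxifen, and their libraries were made from 100 ng of RNA with a TruSeq kit. The labels do not state the genotype of the IgG mice, how many mice stand behind their libraries, or any age, and p-values measure only the spread between these samples.

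DN3 thymocytes are the CD4/CD8 double-negative cells in which the T cell receptor beta locus is rearranged by the RAG recombinase while Notch1 signalling keeps the cells alive and committed to the T lineage. Those that make a pre-T cell receptor divide rapidly and move on, whereas the rest stay small and non-dividing. The Mx promoter is switched on by interferon, which pI-pC, a synthetic double-stranded RNA, induces, and it drives Cre in blood-forming and many other cells. The labels' gate reads CD44-positive and CD25-negative, the reverse of the textbook DN3 gate. Il2ra, which encodes CD25, had 2371, 3493 and 4379 CPM (counts relative to the TMM-scaled library size) in MxCre 1, 2 and 3, against 3206, 3792 and 3635 CPM in IgG 1, 2 and 3, and Cd44 had 7.23, 5.99 and 3.78 CPM in MxCre, against 2.40, 2.46 and 2.85 CPM in IgG. Of the 18 DN3 identity genes, all were tested, and their summed level was 22169 to 23907 CPM in MxCre and 24076 to 25216 CPM in IgG. RNA from a sorted population does not tell fewer expressing cells from less RNA per cell.

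A gene was called at a Benjamini-Hochberg adjusted p (FDR) under 0.05 in edgeR's quasi-likelihood test. Of 13557 genes tested, 140 were called (1.03%), of which 76 rose in MxCre relative to IgG (0.561%) and 64 fell (0.472%). Proliferation, histone, chaperone and nucleolar genes were among those that rose, and the fetal-type transcripts Igf2bp3 and H19, some interferon-inducible genes and Rag1 were among those that fell. The 2 groups of libraries did not overlap for 2541 genes (18.7%), all 140 called genes included. At an unadjusted p under 0.05 there were 1895 genes (14%), 7.44% of those tested being higher in MxCre and 6.54% lower. The median log2 fold change over all genes tested was -0.002. The number of calls depended on single libraries: it was 339 without MxCre 2, 58 without MxCre 3, 21 without IgG 2 and 4 without IgG 3. The 4 calls left without IgG 3 were Igf2bp3, Lsp1, Pydc4 and Rn45s, so every other call given here was lost in that fit. Igf2bp3, Pydc4 and Rn45s kept their calls without each of the 6 libraries in turn. With scaling to library size alone the median over all genes moved to -0.12, and 54 genes were called higher and 211 lower.

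The largest difference between the control groups was at Syne1 (chromosome 10, 5020192-5550692, mm10), which encodes nesprin-1, a giant spectrin-repeat protein that links the nuclear envelope to the cytoskeleton. Syne1 had 178, 164 and 133 CPM in MxCre 1, 2 and 3, against 1.10, 1.58 and 0 CPM in IgG 1, 2 and 3. The MxCre libraries thus lay far above the IgG libraries, without overlap. The log2 fold change was 7.45 ± 0.84 (SE; FDR = 0.0107, and 0.0690 without IgG 3). The same split stood in libraries that the comparison did not use. DeltaMxCre had 170, 193 and 188 CPM and AntiNRR had 0, 2.79 and 1.67 CPM (7.10 ± 0.83, FDR = 0.00138). In the tamoxifen experiment, Syne1 had at most 0.0915 CPM of the library total in DeltaTamCre and at most 0.0978 CPM in TamCre. Of the 6 groups measured, the 2 with MxCre were the ones with high Syne1.

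The 45S ribosomal RNA precursor, Rn45s, had the lowest p of all genes tested. Its share of all counts was 7.67%, 8.82% and 6.76% in MxCre, against 3.74%, 2.75% and 2.89% in IgG (log2 fold change 1.43 ± 0.13, FDR = 8.56e-07, and at most 5.54e-05 with any library left out). All MxCre libraries were above all IgG libraries. Here the other groups did not split the same way, with 4.71% to 5.07% in DeltaMxCre and 4.77% to 6.80% in AntiNRR. In the tamoxifen experiment its share was 0.326% to 0.776% in DeltaTamCre and 0.449% to 1.04% in TamCre. Rn45s stands for many copies in the genome, and the sources used here do not say how its reads were placed. Leaving it out of the table gave 140 calls, of which 135 were shared with the calls above.

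**Figure D1:**
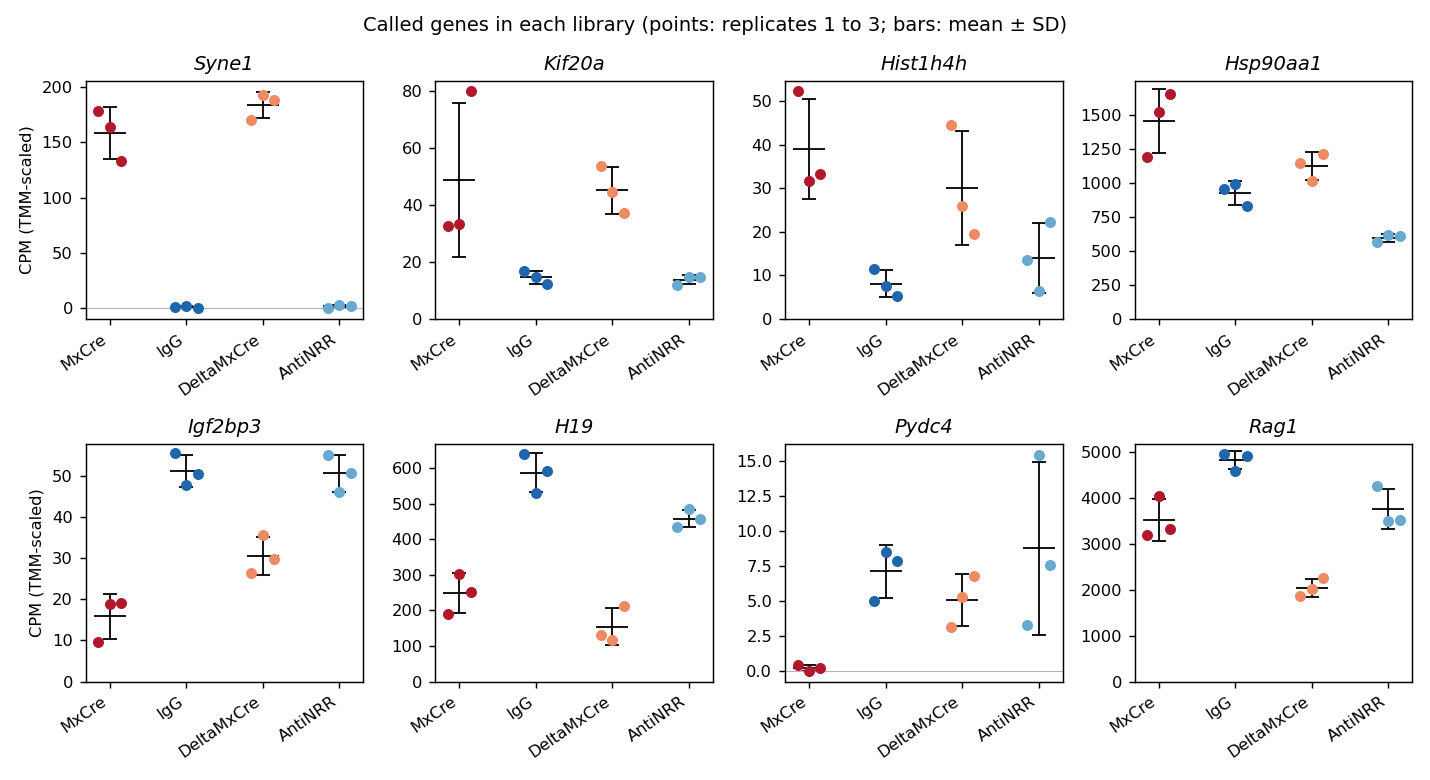
Each panel plots 1 called gene, with CPM on a linear axis and 3 points per group for replicates 1 to 3, in the order MxCre, IgG, DeltaMxCre and AntiNRR; horizontal bars are means and error bars SDs. Syne1 is at 133 CPM or more in every library that carried MxCre and under 3 CPM in the antibody groups, whereas Pydc4 is near 0 in MxCre alone.

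Genes of cell division were higher in MxCre in nearly every case, although few passed the test singly. DNA replication in S phase and chromosome segregation in mitosis use largely separate sets of genes, and the core histones are made alongside new DNA. Of 40 S phase genes tested, all had a log2 fold change above 0 (49.8% of all genes tested did), 2 rose and 38 did not pass, and the median was 0.76, against -0.002 over all genes. The flap endonuclease gene Fen1 had 94.1, 81.8 and 99.0 CPM in MxCre, against 55.5, 60.5 and 44.6 CPM in IgG, without overlap (0.78 ± 0.16, FDR = 0.0189). Chaf1a, which encodes a subunit of the chromatin assembly factor that loads histones onto new DNA, had 112, 95.9 and 127 CPM in MxCre, against 67.8, 63.2 and 61.8 CPM in IgG, again without overlap (0.80 ± 0.18, FDR = 0.0313). The primase gene Prim1, which did not pass, was at 1.17 ± 0.30 (FDR = 0.0568). In 32 of the 40 every MxCre library was above every IgG library, beside 9.46% of all genes, and 36 were higher at an unadjusted p under 0.05. DESeq2's Wald test, which called 448 genes in all, called 20 of the 40.

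Of 39 mitosis genes tested, 38 had a log2 fold change above 0, 1 rose and the median was 1.62. At an unadjusted p under 0.05, 30 were higher, and DESeq2's Wald test called 12. The gene that rose was Kif20a (chromosome 18, 34624624-34633277), a mitotic kinesin needed for cytokinesis, with 32.6, 33.3 and 79.9 CPM in MxCre, against 16.8, 14.6 and 12.1 CPM in IgG (1.75 ± 0.28, FDR = 0.00461). MxCre 3 was the highest library and MxCre 1 and 2 were alike, yet all were above IgG. The proliferation marker Mki67 did not pass, with 992, 669 and 2000.3 CPM in MxCre, against 268, 335 and 289 CPM in IgG (2.04 ± 0.61, FDR = 0.181). Foxm1, which encodes a transcription factor of mitotic genes, had 28.2, 22.2 and 57.9 CPM in MxCre, against 12.4, 16.6 and 12.1 CPM in IgG (1.40 ± 0.34, FDR = 0.0517). The summed level of the list was 2211 to 6890 CPM in MxCre and 1177 to 1331 CPM in IgG. MxCre 3 stood apart: without it the median was 0.91 for mitosis and 0.53 for S phase, and 38 of 39 and 39 of 40 genes still had a fold change above 0. Under library size alone, 38 of 39 and 38 of 40 did.

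Other genes with large rises stood in none of these lists. Cdca3, which encodes a regulator of entry into mitosis, had 30.4, 14.9 and 54.3 CPM in MxCre, against 7.21, 4.23 and 4.89 CPM in IgG (2.60 ± 0.54, FDR = 0.0441). The spindle protein gene Fam83d rose by 4.70 ± 0.96 (FDR = 0.0173), the spindle orientation gene Gpsm2 by 1.85 ± 0.42 (FDR = 0.0326) and the kinetochore gene Dsn1 by 1.78 ± 0.43 (FDR = 0.0438). Fam64a rose by 2.30 ± 0.54 (FDR = 0.0338) and the septin gene Sept11, which encodes a filament protein of the cell cortex, by 1.15 ± 0.19 (FDR = 0.00761). Ptpn13, a large protein tyrosine phosphatase gene that was chosen after its values were seen, had 27.7, 37.1 and 29.6 CPM in MxCre, against 5.54, 11.1 and 14.9 CPM in IgG (1.58 ± 0.34, FDR = 0.0220).

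Of 47 histone genes tested, 46 had a fold change above 0, 6 rose, 0 fell and the median was 1.5 (1.17 without MxCre 3, when 0 were called). There were 36 higher at an unadjusted p under 0.05 and 19 called by DESeq2's Wald test. Those that rose were Hist1h4h, Hist1h3c, Hist1h2ac, Hist1h3a, Hist1h1c and Hist2h4. Hist1h4h, an H4 gene, had 52.2, 31.6 and 33.1 CPM in MxCre, against 11.4, 7.44 and 5.33 CPM in IgG (2.27 ± 0.43, FDR = 0.0220). The linker histone gene Hist1h1c, the most abundant of them, had 281, 215 and 338 CPM in MxCre, against 199, 135 and 143 CPM in IgG (0.80 ± 0.19, FDR = 0.0476). Every MxCre library was above every IgG library for both. The 5 Hist1 genes lie between 23531044 and 23762386 on chromosome 13 and formed the only run of at least 3 neighbouring called genes with gaps of at most 500 kb. Histone genes are close copies of each other, and the sources used here do not say how reads that fit several copies were shared out, which leaves values of single copies uncertain.

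Promoters of the dividing-cell genes were searched for the letters that cell cycle factors are known to bind, in the 250 bases before each gene's start in RefSeq (GRCm38.p6), on both strands. The cell cycle homology region, TTTGAA, stood in 9 of 33 mitosis promoters (27.3%), in 17 of 42 histone promoters (40.5%), in 11 of 60 promoters of genes that rose (18.3%) and in 10.9% of the 10718 promoters of tested genes. It also stood in 10 of 49 promoters of genes that fell (20.4%) and in 10 of 40 of interferon-stimulated genes (25%), and so was not particular to dividing-cell genes. The E2F letters TTTCGCGC, TTTGGCGC, TTTCCCGC or TTTGCCGC stood in 7 of 32 S phase promoters (21.9%), in 4 of 60 promoters of genes that rose (6.67%), in 0 of 49 of genes that fell and in 3.46% of all. One promoter with the cell cycle homology region is shown for Ect2, which encodes the exchange factor that activates RhoA at cytokinesis and was chosen after its values were seen. Capitals mark the match:
Ect2 (chr3:27153879-27154128, minus strand): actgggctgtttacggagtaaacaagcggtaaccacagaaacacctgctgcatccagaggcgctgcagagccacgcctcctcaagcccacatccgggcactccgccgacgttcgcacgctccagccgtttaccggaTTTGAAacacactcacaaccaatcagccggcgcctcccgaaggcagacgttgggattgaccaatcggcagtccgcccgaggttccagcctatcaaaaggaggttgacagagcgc
Ect2 had 64.9, 42.7 and 119.7 CPM in MxCre, against 31.1, 31.6 and 26.4 CPM in IgG (1.35 ± 0.26, FDR = 0.0220, and 0.180 without IgG 3). A match says only that these letters are present.

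**Figure D2:**
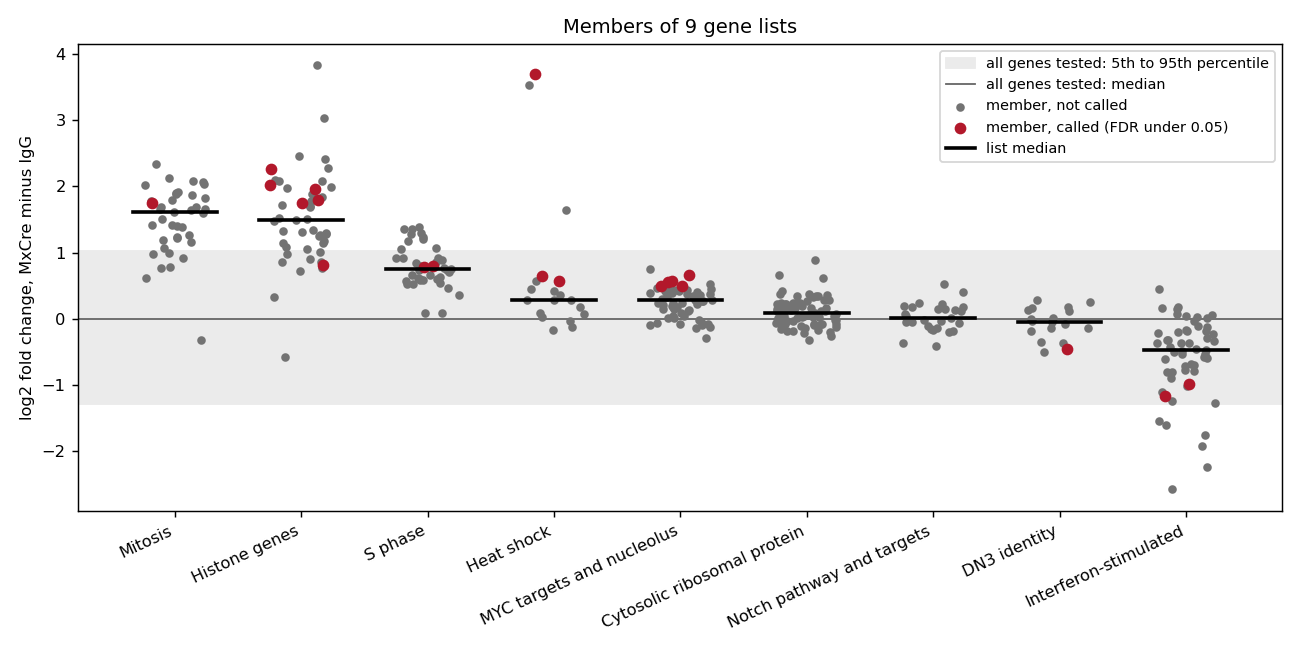
Each point is the log2 fold change (MxCre minus IgG) of 1 tested member of 9 gene lists, red where called; black bars are list medians and the grey band spans the 5th to 95th percentile of all genes tested, -1.29 to 1.02. Mitosis and histone medians, 1.62 and 1.5, lie above the band, S phase lies at 0.76 within it and the interferon-stimulated median is -0.47.

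A few chaperone, nucleolar and metabolic genes passed the test. Of 19 heat shock genes, 3 rose (0.561% of all genes did) and 0 fell, with a median of 0.29 and 16 above 0. In 9 of the 19 every MxCre library was above every IgG library, beside 9.46% of all genes. There were 10 higher at an unadjusted p under 0.05, beside 7.44% of all genes, and DESeq2's Wald test called 6. The cytosolic chaperone gene Hsp90aa1 had 1194, 1519 and 1655 CPM in MxCre, against 958, 995 and 827 CPM in IgG (0.65 ± 0.12, FDR = 0.00851), and its constitutive partner Hsp90ab1 had 3705, 3611 and 3984 CPM in MxCre, against 2548, 2639 and 2404 CPM in IgG (0.57 ± 0.11, FDR = 0.0107). The groups did not overlap at either gene. The stress-inducible Hspa1b had 12.2, 5.43 and 6.32 CPM in MxCre, against 1.41, 0.379 and 0 CPM in IgG (3.70 ± 0.89, FDR = 0.0476), and it is nearly identical to Hspa1a, so the 2 cannot be fully separated. Of 60 MYC target and nucleolar genes, 5 rose, 0 fell and the median was 0.28, with 50 above 0. They were the ribosome biogenesis genes Nop56 (0.49 ± 0.11, FDR = 0.0330), Nolc1 (0.50 ± 0.12, FDR = 0.0423) and Mybbp1a (0.56 ± 0.12, FDR = 0.0236), the pyrimidine synthesis gene Cad (0.66 ± 0.16, FDR = 0.0476) and the lactate dehydrogenase gene Ldha (0.57 ± 0.14, FDR = 0.0427). Without overlap, 26 of the 60 were higher and 1 was lower. There were 20 higher and 0 lower at an unadjusted p under 0.05, and DESeq2's Wald test called 9. Under library size alone 0 of the 60 were called and the median was 0.16.

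Psat1, which encodes an enzyme of serine synthesis, rose by 0.70 ± 0.18 (FDR = 0.0476) as the 1 called gene of 20 in the ATF4 and amino acid list. Myc itself had 237, 135 and 106 CPM in MxCre, against 178, 111 and 117 CPM in IgG, with overlap (0.23 ± 0.28, FDR = 0.807). Cytosolic ribosomal protein genes had a median of 0.08, with 0 of 78 called, and this median turned to -0.04 under library size alone. Of 75 oxidative phosphorylation genes 61 were above 0 (median 0.21, 0 called), and of 22 cholesterol synthesis genes 21 were (median 0.25, 0 called, and 0.03 without MxCre 3). Of 30 immediate-early genes, 25 were above 0 with a median of 0.55 and 0 called, and the median was 0.23 without MxCre 3. These counts of 0 are from edgeR. At an unadjusted p under 0.05 there were 7 ribosomal protein, 7 oxidative phosphorylation, 2 cholesterol and 6 immediate-early genes higher (7.44% of all genes were). At the same mark 1 immediate-early gene was lower (6.54% of all genes were). DESeq2's Wald test and limma-voom each called 1 oxidative phosphorylation gene and 0 in the other 3 lists.

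**Figure D3:**
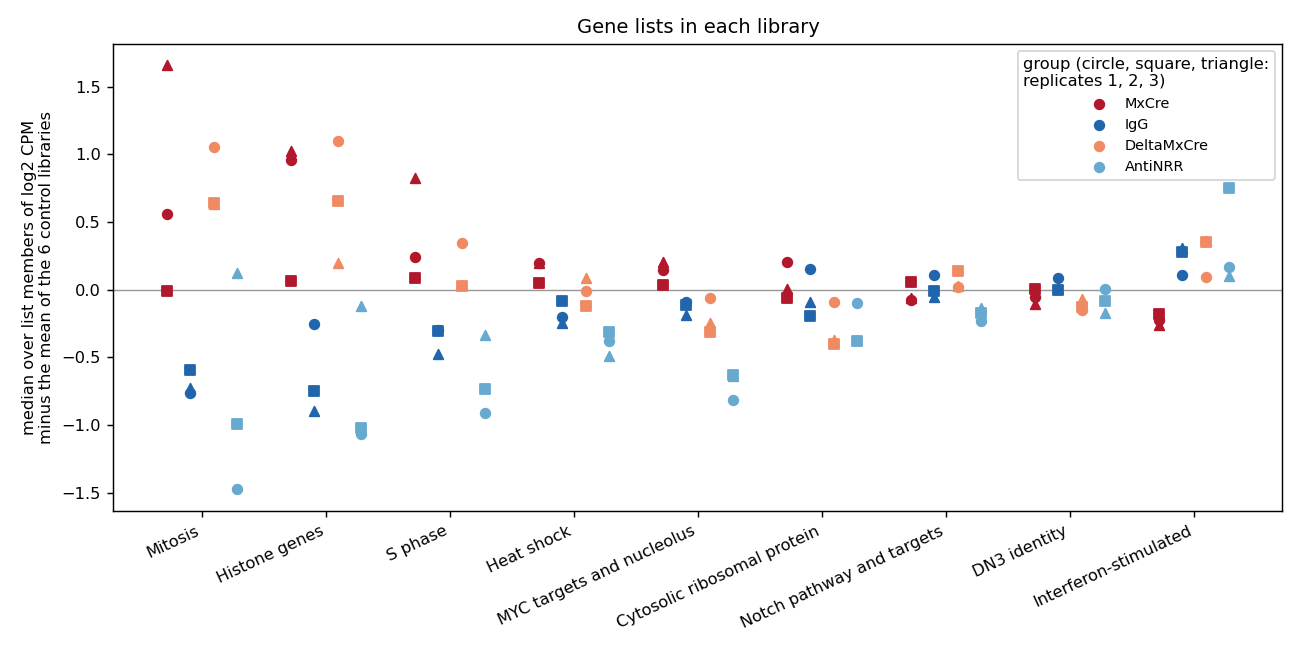
For each of 9 gene lists, the vertical axis gives the median over members of log2 CPM minus the gene's mean in the 6 control libraries, with 1 point per library, coloured by group and shaped by replicate. MxCre 3 is the highest library for mitosis (1.66) and S phase (0.82), MxCre 2 is the lowest MxCre library for both (-0.01 and 0.08), and the interferon-stimulated values of MxCre (-0.26 to -0.18) lie below those of IgG (0.11 to 0.31).

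Among the genes that fell in MxCre, Igf2bp3 (chromosome 6, 49085218-49215469) had the lowest p. It encodes an RNA-binding protein known from fetal tissues and fetal blood-forming cells. Igf2bp3 had 9.62, 18.9 and 19.1 CPM in MxCre, against 55.6, 47.9 and 50.5 CPM in IgG. The groups were far apart, MxCre 1 being the lowest library (-1.69 ± 0.23, FDR = 0.000345). It was called under all 15 alternatives tried, with an FDR of at most 0.00317 when a library was left out. In the second pair DeltaMxCre had 26.3, 35.6 and 29.8 CPM and AntiNRR had 55.1, 46.1 and 50.9 CPM (-0.73 ± 0.22, FDR = 0.0371). Both groups with MxCre were thus below both antibody groups. The tamoxifen groups, made with another kit and without MxCre, were also low, at 18.99 to 42.1 CPM of the library total in DeltaTamCre and 8.74 to 26.1 in TamCre.

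H19 (chromosome 7, 142575530-142578146), an imprinted long non-coding RNA that is abundant in the fetus and declines after birth, moved the same way. It had 190.0, 303 and 250.4 CPM in MxCre, against 638, 529 and 591 CPM in IgG, with no overlap (-1.24 ± 0.21, FDR = 0.0180, but 0.153 without MxCre 3, 0.117 without IgG 3 and 0.0502 without IgG 2). DeltaMxCre had 132, 117 and 213 CPM and AntiNRR had 435, 483 and 455 CPM (-1.57 ± 0.21, FDR = 0.000476). H19 was thus lower in both groups with MxCre than in the antibody groups, without overlap in either pair. It was at 192 to 590 CPM of the library total in DeltaTamCre and 161 to 363 in TamCre, so that low values were not limited to groups with MxCre.

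Pydc4 (chromosome 1, 173566280-173599348), a pyrin domain gene, was nearly silent in MxCre alone. It had 0.418, 0 and 0.169 CPM in MxCre, against 4.96, 8.45 and 7.87 CPM in IgG (-5.11 ± 0.77, FDR = 0.00200, and at most 0.0127 with a library left out). These are 7, 0 and 3 counts in MxCre and 95, 134 and 127 counts in IgG. DeltaMxCre, which shared the transgene and the pI-pC course, had 3.11, 5.23 and 6.77 CPM and AntiNRR had 3.25, 15.5 and 7.59 CPM, so the low level did not extend to the second pair (-0.79 ± 0.60, FDR = 0.491). In the tamoxifen experiment it was at 9.64 to 15.8 CPM of the library total in DeltaTamCre and 7.17 to 10.8 in TamCre. The difference between the 2 comparisons passed its own test (4.32 ± 0.96, FDR = 0.0165), which reuses the MxCre and IgG values behind the call. Cyp2d22, a cytochrome P450 gene, was called at very low levels, with 0, 0 and 0.0565 CPM in MxCre, against 3.86, 1.83 and 2.29 CPM in IgG, and its fitted fold change has no meaning as a size. Its call was lost with any library left out (FDR of 0.0674 to 0.160).

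Other large falls were at genes of varied known roles. Lsp1, a leukocyte actin-binding protein gene named for keeping its call without IgG 3, had 40.9, 31.2 and 27.9 CPM in MxCre, against 77.7, 72.6 and 46.9 CPM in IgG (-0.98 ± 0.18, FDR = 0.0105). Arpp21, a thymocyte-expressed RNA-binding protein gene, had 1063, 1052 and 782 CPM in MxCre, against 1524, 1769 and 1899 CPM in IgG (-0.84 ± 0.14, FDR = 0.00461). Both groups were apart in each case. Tifab, which encodes a TIFA-related inhibitor, fell by 1.37 ± 0.33 (FDR = 0.0414, but 0.0535 to 0.134 with any library left out). The kinase gene Pak6 fell by 1.23 ± 0.30 (FDR = 0.0406), Veph1 by 1.33 ± 0.24 (FDR = 0.00784), the lens filament gene Bfsp2 by 1.40 ± 0.29 (FDR = 0.0173) and Tmem45b by 2.43 ± 0.51 (FDR = 0.0189). The olfactory receptor pseudogene Olfr856-ps1 (-1.01 ± 0.16, FDR = 0.00437) and the zinc finger gene Zfp488 (-0.86 ± 0.15, FDR = 0.00784) were also among the 5 falls of lowest p. No source used here states whether counting was by strand, and a pseudogene may carry reads of its parent genes or of genes that overlap it.

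Interferon-stimulated genes, whose promoters are bound by STAT and IRF factors after interferon and which Mx itself belongs to, lay mostly below IgG in MxCre, 8 weeks after the pI-pC course. Of 55 tested, 46 had a fold change below 0 (50.1% of all genes tested did), 2 fell, 0 rose and the median was -0.47, between -0.51 and -0.40 with any library left out. In 27 members every MxCre library was below every IgG library, beside 9.28% of all genes, and 25 were lower at an unadjusted p under 0.05. DESeq2's Wald test called 9 of the 55 lower and limma-voom 1. Under library size alone 51 of 55 were below 0. The summed level was 3899 to 4020 CPM in MxCre and 4459 to 4868 CPM in IgG. DeltaMxCre, which had the same pI-pC course, was at 4708 to 5505 CPM and AntiNRR at 4569 to 6046 CPM. The low level in MxCre thus did not extend to DeltaMxCre.

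Rtp4, an interferon-induced chaperone of receptors, had 11.4, 15.1 and 11.6 CPM in MxCre, against 23.4, 33.4 and 28.7 CPM in IgG (-1.17 ± 0.27, FDR = 0.0330). Slfn5, a Schlafen family gene, had 21.8, 23.7 and 15.8 CPM in MxCre, against 35, 40.0 and 46.8 CPM in IgG (-0.99 ± 0.23, FDR = 0.0330). Neither gene's groups overlapped, but 0 of the 55 were called without MxCre 1, MxCre 3, IgG 2 or IgG 3. Members that did not pass included Irf9, part of the factor that carries the interferon signal to these genes, at -0.80 ± 0.20 (FDR = 0.0549), the RNA sensor gene Ddx58 at -0.58 ± 0.15 (FDR = 0.0517) and Ifit1 with 12.2, 8.43 and 9.32 CPM in MxCre, against 19.9, 26.2 and 41.3 CPM in IgG (-1.54 ± 0.46, FDR = 0.134). Mx1, whose promoter drives the Cre, was at the edge of detection, with 1.08, 0.375 and 1.30 CPM in MxCre, against 4.44, 0.883 and 3.96 CPM in IgG (FDR = 0.536). Ube2l6, which encodes the conjugating enzyme for the interferon-induced ubiquitin-like protein ISG15 and was not in the list, had 4.48, 4.31 and 4.86 CPM in MxCre, against 12.4, 10.3 and 15.9 CPM in IgG (-1.5 ± 0.34, FDR = 0.0318).

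The interferon-stimulated response element was searched as GAAA and GAAA spaced by any 2 bases, on both strands, in the same promoter windows. It stood in 18 of the 40 list members with a promoter (45.0%), in 3 of 49 promoters of genes that fell (6.12%) and in 2.63% of all 10718. It is shown in capitals for Slfn5, which fell, and for Ifit1, which did not pass, where it stands as its reverse complement:
Slfn5 (chr11:82951852-82952101, plus strand): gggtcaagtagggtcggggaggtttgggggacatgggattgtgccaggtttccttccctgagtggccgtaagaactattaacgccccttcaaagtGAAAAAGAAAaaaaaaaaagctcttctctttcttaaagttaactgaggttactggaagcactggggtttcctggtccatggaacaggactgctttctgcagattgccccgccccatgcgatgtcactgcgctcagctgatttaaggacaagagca
Ifit1 (chr19:34640639-34640888, plus strand): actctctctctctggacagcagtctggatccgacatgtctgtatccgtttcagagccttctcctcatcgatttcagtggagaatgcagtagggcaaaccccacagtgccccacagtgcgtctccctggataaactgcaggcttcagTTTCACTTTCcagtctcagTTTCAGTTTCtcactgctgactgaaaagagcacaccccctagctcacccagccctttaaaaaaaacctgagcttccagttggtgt
The Slfn5 window holds 1 match, which begins 155 bases before the start site, and the Ifit1 window holds 2, at 104 and 85 bases before it.

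In the DN3 programme, 1 gene passed the test between the control groups. Of 18 DN3 identity genes, 1 fell (0.472% of all genes did), 0 rose and the median was -0.04. At an unadjusted p under 0.05, 4 of the 18 were lower (6.54% of all genes were) and 1 higher. Without overlap, 4 were lower (9.28% of all genes were), and DESeq2's Wald test called 3 lower. Of 19 pre-TCR and recombination genes, 1 fell, 5 were lower at an unadjusted p under 0.05 and 5 were lower without overlap. DESeq2's Wald test called 2 lower and the median was -0.06. The gene that fell in both lists was Rag1. Rag1, a subunit of the V(D)J recombinase (chromosome 2, 101638252-101649532), had 3180, 4039 and 3321 CPM in MxCre, against 4943, 4587 and 4913 CPM in IgG, without overlap (-0.45 ± 0.11, FDR = 0.0464). Its partner Rag2 did not pass (-0.50 ± 0.14, FDR = 0.0759). The difference at Rag1 lost its call without each library except MxCre 2 (FDR of 0.116 to 0.231). With only the 6 libraries of the comparison in the fit, 0 genes of either list were called, Rag1 included. In the second pair Rag1 had 1861, 2010 and 2251 CPM in DeltaMxCre and 4248, 3498 and 3511 CPM in AntiNRR (-0.88 ± 0.11, FDR = 1.06e-05).

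Among T lineage transcription factor genes 1 of 25 rose (0.561% of all genes did) and 1 fell (0.472% did). Of the 25, 4 were higher at an unadjusted p under 0.05 (7.44% of all genes were) and 5 lower (6.54% were). Every MxCre library was above every IgG library in 2 (9.46% of all genes) and below in 5 (9.28%). DESeq2's Wald test called 1 higher and 3 lower. Runx1, a factor needed throughout thymocyte development, had 677, 673 and 560.4 CPM in MxCre, against 881, 858 and 907 CPM in IgG (-0.47 ± 0.11, FDR = 0.0438). Hivep3, a large zinc finger gene, had 372, 403 and 399.8 CPM in MxCre, against 270.1, 321 and 270.4 CPM in IgG (0.45 ± 0.11, FDR = 0.0441). Both were apart between the groups. Themis, which tunes T cell receptor signalling in later thymocytes, fell by 0.47 ± 0.11 (FDR = 0.0361) as the 1 called gene of 16 in the beta-selection list, whose median was 0.30 (0.07 without MxCre 3). The BH3-only death gene Bmf fell by 0.56 ± 0.14 (FDR = 0.0441), the 1 called gene of 14 in the BCL2 family. Of these 14, 3 were lower and 0 higher at an unadjusted p under 0.05. Of the 16 beta-selection genes, 2 were lower and 2 higher at that mark. With only the 6 libraries of the comparison in the fit, 0 genes of the T lineage factor, beta-selection or BCL2 family lists were called. Tcf7, which encodes TCF1, was at 0.29 ± 0.11 (FDR = 0.199) and Lef1 at 0.08 ± 0.12 (FDR = 0.855), Lef1 turning to -0.04 under library size alone.

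The genes that the series perturbs or uses as readouts were not called. Zmiz1, deleted in DeltaMxCre, had 298, 360.4 and 334 CPM in MxCre, against 310.1, 285 and 260.3 CPM in IgG (0.21 ± 0.11, FDR = 0.398). Notch1 had 2888, 3218 and 2758 CPM in MxCre, against 3132, 3025 and 2894 CPM in IgG (-0.03 ± 0.10, FDR = 0.945). The groups overlapped at both genes. The Notch target Dtx1 had 138, 188 and 192 CPM in MxCre, against 162, 191 and 162 CPM in IgG (0.01 ± 0.30, FDR = 0.995), and its sign turned under several settings. Hes1 was at -0.06 ± 0.19 (FDR = 0.942), Il2ra at -0.05 ± 0.22 (FDR = 0.956) and the pre-T cell receptor gene Ptcra at -0.37 ± 0.15 (FDR = 0.233). Of 27 Notch pathway genes 0 were called, 14 were above 0 and the median was 0.01, or -0.11 under library size alone, where the median of all genes was -0.12. At an unadjusted p under 0.05, 0 of the 27 were higher (7.44% of all genes were) and 2 lower (6.54% of all genes were), and DESeq2's Wald test called 0.

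Other programmes that act in thymocytes held 0 genes called by edgeR. The median log2 fold change was 0.07 over 20 genes of class I antigen presentation, -0.15 over 15 glucocorticoid response genes, 0.01 over 16 circadian clock genes, -0.07 over 19 p53 targets, -0.05 over 15 genes of IL-7 and STAT5 signalling and 0.15 over 16 genes of the PIAS-like and SUMO list, the family to which the Zmiz1 protein belongs. At an unadjusted p under 0.05 they held 3, 4, 1, 4, 1 and 2 genes in that order, beside 14% of all genes. DESeq2's Wald test called 1 class I, 1 p53 and 1 PIAS-like or SUMO gene. Over all 35 lists, 13 had a called member and 22 had none, and 115 of the 140 called genes stood in no list.

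Markers of other cells gave no called gene. Summed B cell markers were at 26.4 to 31.7 CPM in MxCre and 28.6 to 40.3 CPM in IgG, with Pax5 at 0 in all 6 libraries, and summed myeloid markers were at 22.3 to 25.7 CPM in MxCre and 15.3 to 31.5 CPM in IgG, with 7 of 17 genes, S100a8 and S100a9 among them, at 0. Erythroid and platelet markers summed to 2.82 to 8.37 CPM in MxCre and 7.89 to 12 CPM in IgG. Thymic stroma markers summed to 238 to 258 CPM in MxCre and 249 to 259 CPM in IgG, with Foxn1 and Krt5 among 7 of 13 at 0. Of the 4 stroma genes tested, 0 were called by edgeR or DESeq2 and 3 were lower in MxCre without overlap (9.28% of all genes were). At an unadjusted p under 0.05, 2 were lower (6.54% of all genes were). The median of -0.60 was the lowest of all lists, but it rests on these 4 genes. Cdh5, an endothelial cadherin gene, had 0.299, 0 and 0 CPM in MxCre, against 1.67, 3.34 and 0.867 CPM in IgG (FDR = 0.236), and Psmb11, a proteasome subunit of thymic epithelium, had 2.27, 4.62 and 4.52 CPM in MxCre, against 7.94, 6.06 and 8.67 CPM in IgG (FDR = 0.285). In the second pair Cdh5 had 0 CPM in each DeltaMxCre library, against 2.08, 0.338 and 2.81 CPM in AntiNRR (FDR = 0.0234). Dendritic cell markers, several of which thymocyte progenitors also express, summed to 186 to 332 CPM in MxCre and 343 to 375 CPM in IgG, without overlap, while Clec9a and Cd209a were at 0. Much of that sum was Ccr9, with 175, 154 and 39.7 CPM in MxCre, against 223, 183 and 232 CPM in IgG. Of the 8 members tested, 4 were higher and 4 lower (median -0.10). Irf8 was higher without overlap, with 14.4, 11.6 and 7.28 CPM in MxCre, against 7.10, 5.11 and 3.65 CPM in IgG (FDR = 0.317). Among the remaining lists of other stages and lineages, NK and innate lymphoid markers summed to 235 to 390 CPM in MxCre and 248 to 303 CPM in IgG. Much of that sum was Gata3, also a DN3 identity gene, with 197, 134 and 184 CPM in MxCre, against 152, 152 and 127 CPM in IgG. Ncr1, Klrb1c and Klrd1 were at 0 in all 6 libraries. DN1 and DN2 progenitor markers summed to 210 to 262 CPM in MxCre and 241 to 299 CPM in IgG (median log2 fold change -0.25). The part of the markers of other cells in the results was not tested.

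The Y-linked genes Ddx3y, Kdm5d, Eif2s3y and Uty were at 0 in all 6 libraries, and Xist had 2097, 2350 and 1787 CPM in MxCre, against 2701, 3023 and 2979 CPM in IgG (-0.48 ± 0.14, FDR = 0.0902). Nnt, part of which is deleted in a C57BL/6 substrain, had counts in all 6 libraries, with 116, 111 and 212 CPM in MxCre, against 75.5, 197 and 123 CPM in IgG (0.15 ± 0.44, FDR = 0.938). Called genes were spread over the chromosomes, from 0.284% of tested genes on chromosome 8 to 2.06% on chromosome 13, where the histone cluster lies.

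The second pair of groups gave the same contrast of experiments in 6 other libraries, with the Zmiz1 deletion in one arm and Notch1 blockade in the other, which cannot be told apart from the difference of experiment. There, 1150 of the 13557 genes were called (8.48%), 633 higher in DeltaMxCre than in AntiNRR (4.67%) and 517 lower (3.81%). Of the 76 genes that rose in MxCre against IgG, 72 had a fold change above 0 in DeltaMxCre against AntiNRR (48.9% of all genes did), and 45 were called in that direction and 0 in the other. Their median log2 fold change there was 0.70. Of the 64 that fell, 34 had a fold change below 0 (51.0% of all genes did), 14 were called in that direction and 2 in the other, and their median was -0.02. The test of the difference between the 2 comparisons was passed by 1 of the 76 and by 21 of the 64. That test reuses the MxCre and IgG values by which these genes were called, so it is not independent of the call.

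By list, the second pair had 18 of 40 S phase genes called higher (median 0.88), 6 of 39 mitosis genes (1.54), 10 of 47 histone genes (1.35), 30 of 60 MYC target and nucleolar genes (0.55) and 7 of 19 heat shock genes (0.48). Summed mitosis genes were at 3236 to 4202 CPM in DeltaMxCre and at 654, 993 and 2385 CPM in AntiNRR 1, 2 and 3. AntiNRR 3 was thus above MxCre 2, which was at 2211 CPM. Summed histone genes were at 1527 CPM in AntiNRR 3 and 1526 CPM in MxCre 2. Relative to the mean of the 6 control libraries, the MYC list medians (log2) were -0.06, -0.31 and -0.25 in DeltaMxCre. They were -0.09, -0.12 and -0.19 in IgG and -0.81, -0.63 and -0.64 in AntiNRR. For this list DeltaMxCre thus lay near or below IgG, and AntiNRR lay below both. Kif20a had 53.6, 44.4 and 37.0 CPM in DeltaMxCre, against 11.9, 14.8 and 14.6 CPM in AntiNRR (1.71 ± 0.28, FDR = 0.000309), and Hsp90aa1 had 1145, 1017 and 1216 CPM in DeltaMxCre, against 563, 617 and 608 CPM in AntiNRR (0.92 ± 0.12, FDR = 1.06e-05). Both repeated the direction seen in MxCre. The interferon-stimulated list had a median of -0.13 there, with 2 called higher and 4 lower: Rtp4 was lower again (-0.98 ± 0.27, FDR = 0.0197), while Slfn5 was at -0.02 ± 0.23 (FDR = 0.974). The 2 genes called in opposite directions were Slc5a3, a myo-inositol transporter gene, and Tbrg3. Tbrg3 had 50.1, 59.3 and 44.9 CPM in MxCre, against 72.5, 101.1 and 108 CPM in IgG, but 105, 140.2 and 129 CPM in DeltaMxCre, against 66.6, 65.6 and 56.7 CPM in AntiNRR.

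**Figure D4:**
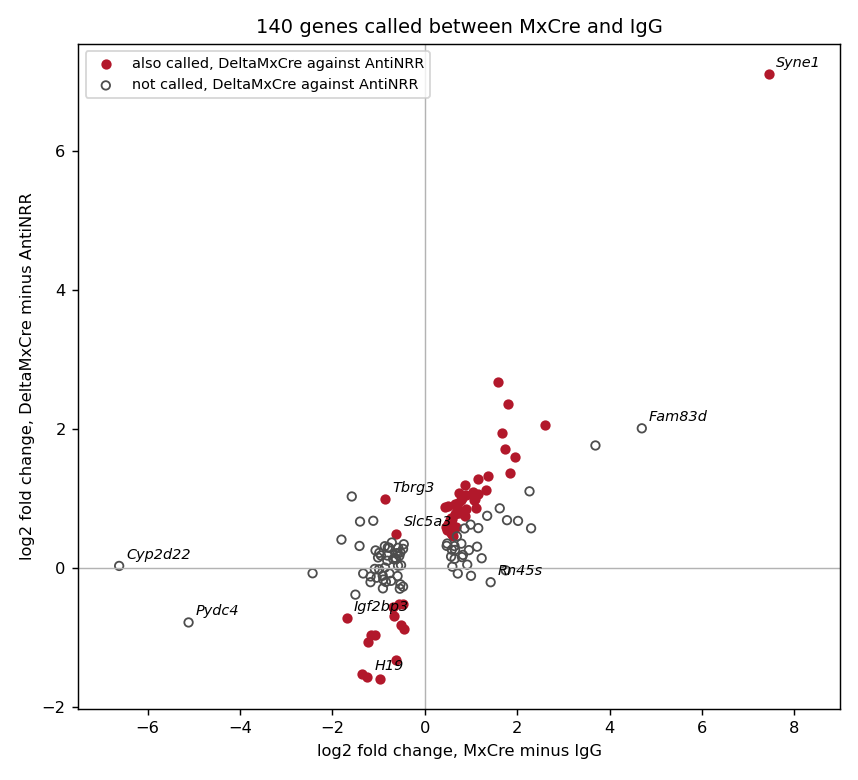
Each point is 1 of the 140 called genes, with its log2 fold change in MxCre minus IgG on the horizontal axis and in DeltaMxCre minus AntiNRR, from 6 other libraries, on the vertical axis; filled red points were called in both. Genes on the right, which rose in MxCre, lie mostly above 0 (72 of 76), and genes on the left lie on both sides of 0 (34 of 64 below).

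Averaged over both pairs in the same fit, 1314 genes differed between the MxCre experiment and the antibody experiment (9.69%), 817 higher (6.03%) and 497 lower (3.67%), or 631 higher and 821 lower with library size alone. In the authors' deposited table of group mean FPKM, all 140 called genes lay in the same direction. Those means come from the same libraries, so this match is not independent of the calls.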

How the data were processed

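Deposited values were of 2 kinds. The count table holds the authors' estimated count per gene and library, not normalized. The submitters' processing notes name FastQC 0.10.0, TopHat2 2.0.9, Bowtie2 2.1.0.0, Cufflinks, Cuffdiff 2.1.1 and mm10. For the gene annotation, the strand setting and reads with several matches, the sources used here state nothing. A further table by the authors gives mean FPKM of each group, raised to at least 1, and served only to compare directions; its header does not name the unit. Of the count values, 98.4% were whole, and the rest were rounded.

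Counts of 23284 genes in the 12 SMARTer libraries were fitted in 1 model with edgeR 4.0.16 (R 4.3.3): filterByExpr, TMM scaling and the robust quasi-likelihood F test, 8 residual degrees of freedom. Contrasts were MxCre minus IgG, DeltaMxCre minus AntiNRR, their mean and their difference, each with Benjamini-Hochberg adjustment over 13557 genes and an FDR threshold of 0.05. Sharing the fit means that the contrasts share the estimate of spread. The fit was tested on simulated data.

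Alternatives were the 6 libraries alone, other scalings and filters, DESeq2 1.42.0, limma-voom 3.58.1, a replicate block and each library left out; leaving out Rn45s was added after seeing the data. The text names the 12 called genes of largest change in each direction (groups not overlapping, higher mean at least 5 CPM), the 5 of lowest p in each direction, called or lowest-p list members, and fixed study genes. Lsp1, Ptpn13, Ect2, Ifit1, Slc5a3, Tbrg3, Cyp2d22, Mki67, Foxm1, Irf9, Ddx58, Rag2, Hspa1a and Prim1 were chosen after their values were seen. The libraries, the 35 gene lists and the tests were chosen with earlier results of these data known.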

Additional observations from a re-analysis of the deposited data

Results flagged for a closer look

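For 17 of the named genes the effect of DeltaMxCre against AntiNRR differed from the effect of MxCre against IgG in a test of the difference itself (an edgeR quasi-likelihood test, FDR under 0.05). The first effect also holds the Zmiz1 deletion and the Notch1 blockade, which cannot be told apart from the difference between the control settings. For genes called between MxCre and IgG, the test reuses the values behind the call and so is not independent of it.

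Some of these are genes that the deletion or the antibody is aimed at or that Notch1 is known to control. The difference was 5.06 on the log2 scale for the Notch target Dtx1 (FDR = 0.000889), 3.01 for Il2ra (FDR = 0.000961), 1.73 for Ptcra (FDR = 1.3e-05) and -1.59 for Zmiz1 (FDR = 8.4e-07). Each of them missed the threshold between MxCre and IgG.

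Genes that fell in MxCre against IgG gave most of the other differences. The difference was 4.32 for Pydc4 (FDR = 0.0165), 2.60 for 1500004A13Rik (FDR = 0.00439), 2.06 for Bfsp2 (FDR = 0.00518), 1.17 for Zfp488 (FDR = 0.00252) and 1.16 for Olfr856-ps1 (FDR = 0.00586). Slc5a3 (1.10, FDR = 0.00157) and Tbrg3 (1.85, FDR = 1.9e-05) were called in opposite directions in the 2 comparisons. Rn45s, which rose in MxCre, had a difference of -1.64 (FDR = 1.3e-05).

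The remaining genes were not called between MxCre and IgG. The transcription factor gene Mycn differed by 1.30 (FDR = 0.0433) and the circadian gene Clock by 1.28 (FDR = 0.0395). Gata3, which encodes a T lineage factor, differed by -0.98 (FDR = 0.00405), Tcf7 by -0.69 (FDR = 0.0144) and the class I histocompatibility gene H2-Q4 by 0.93 (FDR = 0.0245).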

How the results depend on the processing

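All 140 genes called between MxCre and IgG kept their direction under the 15 alternatives tried, where they were tested, but their calls were less stable: 50 were called under at least 12 alternatives, and 2 (Igf2bp3 and Rn45s) under every one that tested them. The number called was 265 with library size alone, 234 with no filter, 448 with DESeq2's Wald test and 230 with the replicate block, and 4 to 339 with a library left out. DeltaMxCre against AntiNRR gave 661 to 1123 calls with a library left out, and the mean of both comparisons 874 to 1435. With the 6 libraries alone 95 genes were called higher and 40 lower, of which 84 were among the 140 called in the main fit.

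The block adds the replicate number, which the labels do not tie to a shared animal or day. Correlations between the deviations of same-numbered libraries of MxCre and IgG were 0.0325, 0.0225 and -0.00713, so the numbers were not taken as pairs, and MxCre 3 did not correlate best with its own number.

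Signs turned for several genes, and the cause was not tested. Not all of them were near 0, since Cxcr6 was at -0.90 ± 0.73 in the main fit. Dtx1 was at -0.114 with library size alone, -0.0012 with no filter, -0.0147 with the strict filter and -0.0122 with the replicate block, and Lef1 at -0.041 with library size alone. With a library left out, Dtx1 ranged from -0.066 to 0.147, Cxcr6 from -2.29 to 0.204, Sox13 from -0.681 to 0.0155, Socs2 from -0.229 to 1.5, Notch1 from -0.0831 to 0.0251, Myc from -0.17 to 0.486, Hes1 from -0.252 to 0.125, Il2ra from -0.265 to 0.152 and Nnt from -0.213 to 0.572. Depth limits what could be seen in low genes, since a gene at a few counts a library, such as Pydc4 in MxCre, carries a large counting error.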
